A study of Homo sapiens with 6 samples.

Results

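Solute carriers, the genes of the SLC series, encode membrane proteins that move amino acids, sugars, metals, ions, nucleotide sugars, vitamins and other small molecules across the plasma membrane and the membranes of organelles. The genes described here are protein-coding genes with an SLC symbol, selected on their mean expression of at least 1 FPKM over 6 RNA-seq libraries of SK-MES-1, an established human cell line of lung squamous cell carcinoma. FPKM counts fragments per kilobase of gene length and sequencing depth, so levels can be set side by side between genes. Carriers of the mitochondrial SLC25 family were left out, and SLC7A11, SLC2A1, SLC2A3 and SLC16A3 were left out by name. This left 153 of 374 protein-coding SLC genes, in a deposited table of 58735 genes. Of the 192 SLC genes that reached the mean, 35 belonged to SLC25, and 182 more lay below it.

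The mean over all libraries chose the members and is given as a description. Just inside the threshold were SLC22A17 at a mean of 1.09 FPKM, SLC22A18AS at 1.06 FPKM and SLC22A3 at 1.02 FPKM. Just outside it were SLC29A3 at 0.943 FPKM, SLC22A15 at 0.770 FPKM and SLC35G1 at 0.770 FPKM. In 10 members a group mean fell below 1 FPKM, which was si1 for 3 of them, si2 for 7 and NC for 2. Since such genes reached the mean through the groups in which they were higher, their differences to a group below it are given as values, with no test. Below the threshold and outside SLC25 were 169 SLC genes, and 51 of these were listed at 0 in all 6 libraries.

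The labels name 3 groups of 2 libraries each. SK-MES-1 cells with a transient knockdown of KRT6A, a keratin of stratified epithelium, form si1 and si2, and control cells form NC. Neither the knockdown reagents nor the time of harvest is in the labels, and no treatment or further allele is named. They also do not tell whether replicates 1 and 2 of a group came from separate cultures, so the spread behind each p-value may be technical.

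Most solute carriers are driven by a gradient of sodium, protons or another substrate, and some reach the membrane only with a partner subunit. In epithelial tumour cells, exchangers of neutral amino acids are known for supplying leucine and glutamine to growth signalling at the lysosome. Zinc and copper carriers keep these metals within a narrow cytosolic range, and the SLC35 family brings nucleotide sugars into the Golgi and the endoplasmic reticulum for glycosylation.

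Each library held between 14948607 and 17401392 reads. KRT6A was listed at 0 in all 6 libraries, so its knockdown could not be checked and the libraries are called by their labels throughout. KRT7, KRT8, KRT18 and KRT19, keratins of simple epithelium, averaged 47.8 to 145.7 FPKM. Of the squamous markers, TP63 averaged 7.78 FPKM and SOX2 0.524 FPKM, KRT5 and KRT14 had 1 read each over all libraries, and DSG3 was listed at 0. TP63 had 5.37 and 5.34 FPKM in si1, 12.8 and 10.9 FPKM in si2, and 5.97 and 6.25 FPKM in NC. The sum of EPCAM and the 4 simple keratins was 370.3 to 375.9 FPKM in si1, 263.7 to 277 FPKM in si2 and 354.5 to 378.9 FPKM in NC, and single genes of this list differed between groups in both directions. CD3E, CDH5 and COL1A2, which mark leukocytes, endothelium and fibroblasts, were listed at 0, while COL1A1 averaged 18.8 FPKM, PDGFRB 1.37 FPKM and CD14 1.17 FPKM. The 3 fibroblast markers summed to 19.4 to 24.4 FPKM in si1, 22.07 to 22.1 FPKM in si2 and 16.4 to 16.7 FPKM in NC. The part of any of these markers in the results was not tested.

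Among the 153 members, means ranged from 1.02 FPKM for SLC22A3 to 254.3 FPKM for SLC38A2, with a median of 5.99 FPKM. At 10 FPKM or more were 47 members, and 12 of these carry amino acids, the class with the highest median of the transporters, 13.5 FPKM over 23 genes. Metal carriers had a median of 9.46 FPKM over 23 genes, and the SLC35 family 8.80 FPKM over 22 genes. Lower medians were found for 25 ion carriers, at 5.07 FPKM, and for 14 sugar carriers, at 3.48 FPKM. The other transporter classes were 15 carriers of organic ions and other substrates, 8 of carboxylates, 7 of vitamins, 7 of lipids and choline and 3 of nucleosides and nucleobases. A further 6 rows bear an SLC symbol but encode no transporter. SLC8B1, SLC30A9 and SLC41A3 are known from mitochondria although they are no SLC25 genes, and the rule kept them.

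Groups were compared over all 12319 genes that averaged 1 FPKM or more, by limma on log2(FPKM + 1), and a gene was called at an adjusted p under 0.05. Fold changes are log2 values on that scale, which understates the change of genes with low FPKM. SLC35F3 was picked for a change already known, so its values stand without a test and it is in no count. The comparison of si1 and si2 together, or both groups together, sets the mean of the 2 groups against NC. A gene called there need not have changed in each group. SLC44A2, for example, was called lower there and higher in si1 by itself. Of the other 152 members, 8 rose and 36 fell in this comparison, where 20.5% of all genes tested were called, 8.73% higher and 11.8% lower. The 10 members with a group mean below 1 FPKM make up 2 of those that fell, and of the remaining 142 members 8 rose and 34 fell. As a share of all 152, 5.26% were higher and 23.7% lower, and their median log2 fold change was -0.13 beside -0.01 for all genes. In bulk RNA, fewer cells with a transcript and less of it per cell cannot be told apart.

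Each knockdown group was also set against NC by itself. In si1, 11 members rose and 39 fell, beside 22.4% of all genes called, 9.47% higher and 12.9% lower. In si2, 20 rose and 44 fell, beside 29.0% of all genes called, 13.6% higher and 15.4% lower. The 142 members without a group mean below 1 FPKM had 10 higher and 38 lower in si1. In si2 they had 20 higher and 39 lower. Both comparisons use the same 2 NC libraries, so their calls are not independent. In the direct contrast, 35 members were higher and 41 lower in si1 than in si2, beside 38.5% of all genes called, 18.6% higher and 19.9% lower. Of the same 142 members, 32 were higher and 41 lower there. The counts of classes and partner lists below are to be read beside the shares of all genes in the same comparison.

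The number of calls depended on the NC libraries and on how the knockdown groups were joined. In si1 and si2 together, 44 members were called, against 21 without NC replicate 1, 17 without NC replicate 2 and 29 without si2 replicate 2. The 4 knockdown libraries were also fitted as 1 group, so that the distance between si1 and si2 counted as spread. There limma called 4 members lower, SLC31A1, SLC45A3, SLC6A9 and SLC6A17, and none higher. SLC6A17 is among those that reached the mean through NC, which leaves 3. At an unadjusted p under 0.05 there were 30 lower and 5 higher. The share of all genes in that fit is not given, so whether members fell more often than all genes there was not tested. Every other call for both groups together ended in that fit, which is not repeated gene by gene. The alternatives named beside single calls below are another pseudocount, no filter on low genes, median centring, limma-voom on recovered reads and each library left out.

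**Figure D1:**
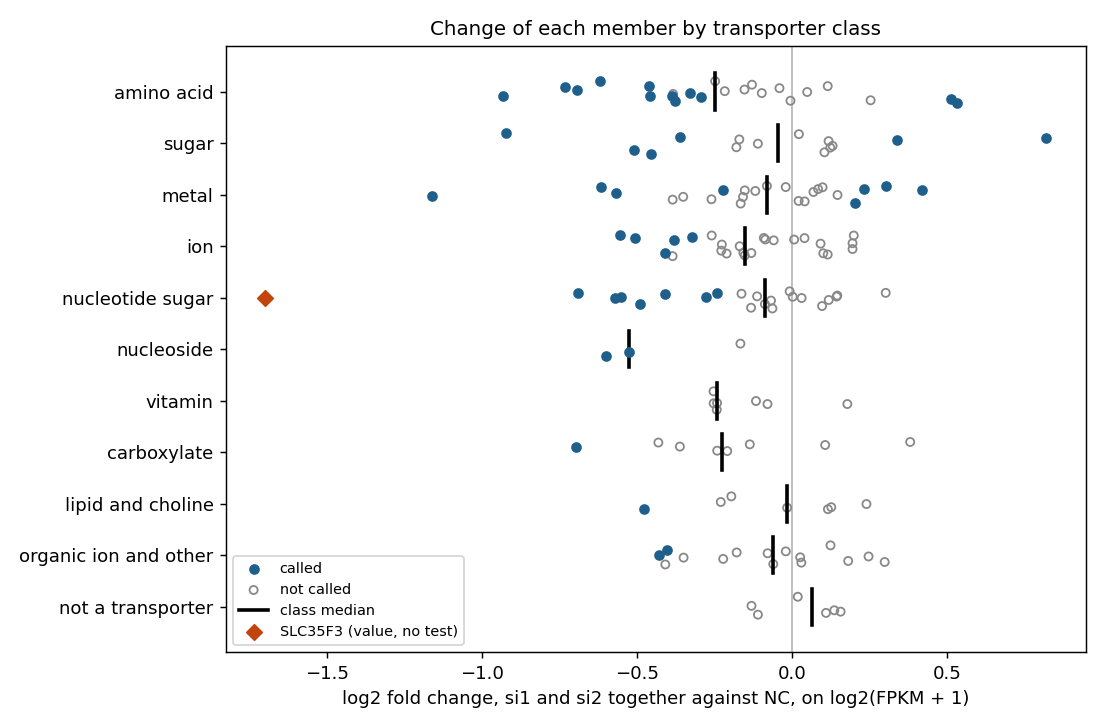
Log2 fold change of each member in si1 and si2 together against NC (x axis, on log2(FPKM + 1)) by transporter class (y axis). Filled points are called at an adjusted p under 0.05, open points are not, vertical bars are class medians and the diamond is SLC35F3, shown as a value. Of the called amino acid carriers 2 lie right of 0 and 10 left of it, among the latter SLC6A17, which the text gives with no test.

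After SLC35F3, which is described with its family, the largest changes in both groups together were in a copper importer, neutral amino acid carriers and sugar carriers. SLC31A1 (chr9:113221562-113264492), the high-affinity copper importer of the plasma membrane, had 7.85 and 7.44 FPKM in si1, 7.38 and 7.70 FPKM in si2, and 18.7 and 17.8 FPKM in NC. All 4 knockdown libraries lay below both NC libraries (log2 fold change -1.16, SE 0.063, adjusted p 0.000216), and the libraries of si1 and si2 overlapped, with a log2 difference of 0.02, SE 0.072. The call against NC held in all of its alternatives (adjusted p 9.12e-12 to 0.0159 over its 12 alternatives).

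**Figure D2:**
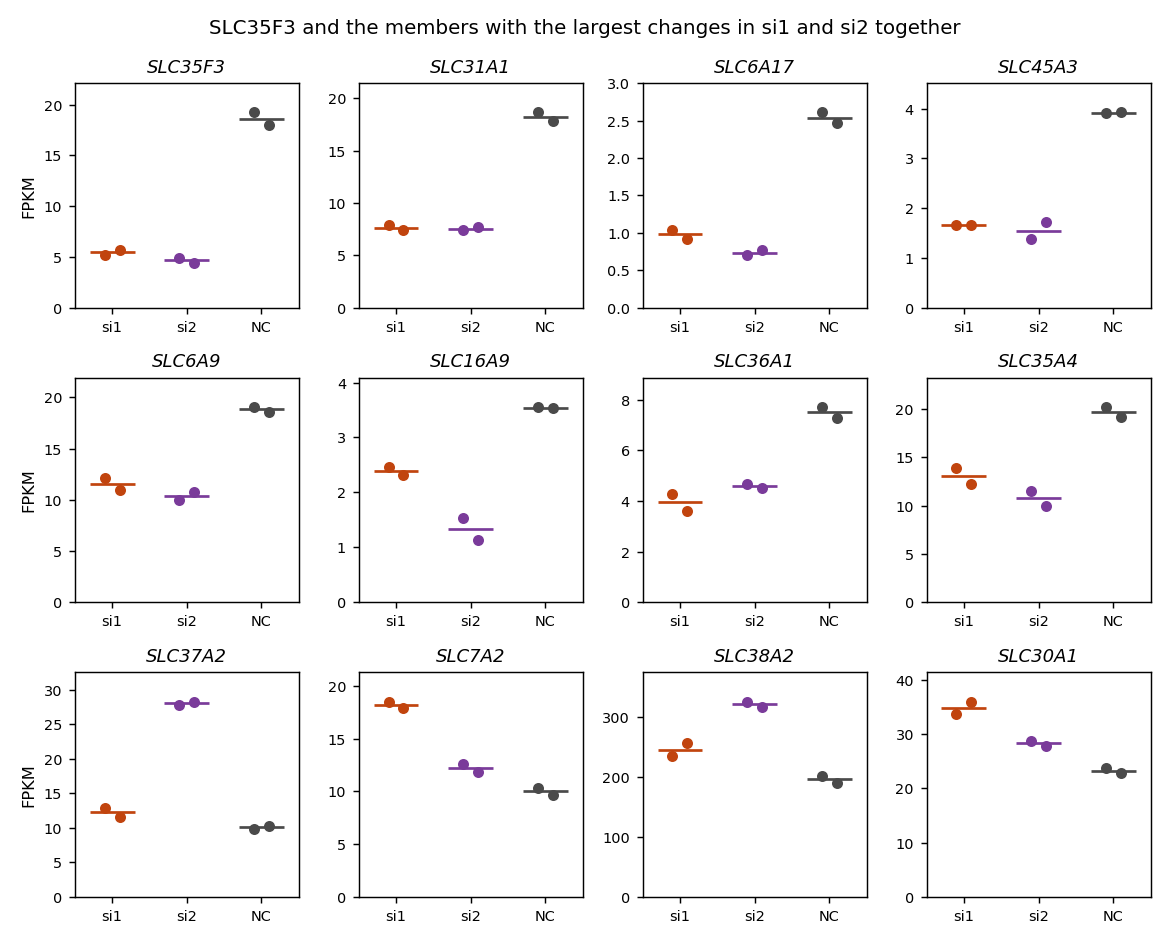
FPKM (y axis, from 0) of SLC35F3 and of the 7 members with the lowest and the 4 with the highest log2 fold change in si1 and si2 together. Points are libraries and bars are means of the 2 libraries of si1, si2 and NC. For SLC31A1 the knockdown libraries sit between 7.38 and 7.85 FPKM, below the NC libraries at 18.7 and 17.8 FPKM, and for SLC37A2 the si2 libraries at 27.8 and 28.3 FPKM stand above si1 and NC.

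Among the 23 amino acid carriers, 2 rose and 10 fell in both groups together. The calls were 3 higher and 12 lower in si1, and 3 higher and 8 lower in si2. SLC6A17, given below with no test, is among the falls counted in each of these comparisons. The median log2 fold change of the class in both groups together was -0.25. Across alternatives its number of calls ran from 2 to 15 in both groups together, 9 to 17 in si1 and 6 to 18 in si2. The members that rose in both groups together were a neutral and a cationic amino acid carrier. SLC38A2 (chr12:46358189-46372867), a sodium-coupled importer of small neutral amino acids and the most abundant carrier of all, had 234 and 256 FPKM in si1, 325 and 317 FPKM in si2, and 202 and 191 FPKM in NC. All 4 knockdown libraries were above NC (log2 fold change 0.51, SE 0.053, adjusted p 0.00143), and si1 lay below si2 (log2 difference -0.39, SE 0.062, adjusted p 0.00304). The rise of SLC38A2 in both groups together held in every alternative but the single knockdown group (adjusted p 1.53e-08 to 0.207 over its 12 alternatives). SLC7A2 (chr8:17497088-17570573), which carries arginine and lysine, had 18.5 and 17.9 FPKM in si1, 12.6 and 11.8 FPKM in si2, and 10.4 and 9.67 FPKM in NC. Every knockdown library exceeded NC (log2 fold change 0.53, SE 0.063, adjusted p 0.00222), and si1 exceeded si2 (log2 difference 0.54, SE 0.073, adjusted p 0.00163). In si2 by itself the rise of SLC7A2 against NC held in 5 of its 11 alternatives. The call of SLC7A2 for both groups together held in every alternative but the single knockdown group (adjusted p 9.99e-07 to 0.309 over its 12 alternatives).

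SLC3A2 is the heavy chain that takes several light chains of the SLC7 family to the plasma membrane, and 2 of these light chains were members. The heavy chain had 55.6 and 53.04 FPKM in si1, 90.2 and 96.1 FPKM in si2, and 76.1 and 76.3 FPKM in NC. Against NC it fell in si1 (log2 fold change -0.48, SE 0.059, adjusted p 0.002) and rose in si2 (log2 fold change 0.29, SE 0.059, adjusted p 0.0132), with no overlap among the 3 groups. Its fall in si1 held in all of its alternatives (adjusted p 5.93e-06 to 0.0256 over its 11 alternatives). Its rise in si2 ended without si2 replicate 2, NC replicate 1 and NC replicate 2 in turn (adjusted p 0.093, 0.0817 and 0.084), in a range of 0.00123 to 0.093 over its 11 alternatives. The light chain SLC7A5 (chr16:87830023-87869488), the leucine exchanger LAT1, had 58.004 and 50.8 FPKM in si1, 78.3 and 79.4 FPKM in si2, and 99.9 and 102 FPKM in NC. SLC7A5 fell in both groups together (log2 fold change -0.62, SE 0.063, adjusted p 0.00132) and was lower in si1 than in si2 (log2 difference -0.53, SE 0.072, adjusted p 0.00169). This fall held in every alternative but the single knockdown group (adjusted p 1.55e-08 to 0.236 over its 12 alternatives). In si2 by itself the fall of SLC7A5 against NC held in 6 of its 11 alternatives. The light chain SLC7A6 had 3.06 and 2.44 FPKM in si1, 2.15 and 2.17 FPKM in si2, and 3.64 and 3.81 FPKM in NC and fell in both groups together (log2 fold change -0.46, SE 0.098, adjusted p 0.0188). The SLC7A6 call ended with no filter on low genes (adjusted p 0.0888) and without NC replicate 1 and NC replicate 2 in turn (adjusted p 0.105 and 0.136), in a range of 0.000214 to 0.207 over its 12 alternatives. SLC7A6OS overlaps SLC7A6 on the other strand, and whether reads were counted by strand is not given in the sources used here.

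A cationic amino acid importer, SLC7A1, and a pair of neutral amino acid exchangers, SLC1A4 and SLC1A5, fell in si1. SLC7A1 (chr13:29509410-29595688), the main arginine and lysine importer of many cells, had 15.2 and 12.7 FPKM in si1, 32.1 and 33.2 FPKM in si2, and 28.1 and 28.4 FPKM in NC. The si1 libraries were far below NC (log2 fold change -0.97, SE 0.089, adjusted p 0.000682), and the si2 libraries were just above NC without a call (log2 fold change 0.20, adjusted p 0.136). SLC1A4, an exchanger of alanine, serine and cysteine, had 12.1 and 10.3 FPKM in si1, 23.2 and 23.6 FPKM in si2, and 20.8 and 19.4 FPKM in NC. It showed the same order, with a fall in si1 (log2 fold change -0.80, SE 0.088, adjusted p 0.00136) and no call in si2 (log2 fold change 0.21, adjusted p 0.119). SLC1A5, the glutamine exchanger ASCT2, had 64.3 and 62.01 FPKM in si1, 90.5 and 93.9 FPKM in si2, and 81.5 and 85.7 FPKM in NC. Its si1 libraries lay below all others (log2 fold change -0.40, SE 0.058, adjusted p 0.00387). The fall of SLC7A1 in si1 held in all of its alternatives (adjusted p 6.91e-10 to 0.0104 over its 11 alternatives). That of SLC1A4 held in all of its alternatives (adjusted p 4.26e-08 to 0.0185 over its 11 alternatives). That of SLC1A5 held in all of its alternatives (adjusted p 0.000125 to 0.0438 over its 11 alternatives).

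The start regions of SLC7A1 and SLC3A2 are shown because both genes held a match and are known targets of the amino acid response. This is the transcriptional answer to amino acid shortage. The letters TGATGNAAN, the amino acid response element, were searched on both strands from 250 bases before to 50 after the RefSeq start (build GRCh38.p14), for the 119 members with an entry. A match was found in 3.67% of all 27305 promoters and in 4.2% of the members, which are 5 genes. SLC38A1 is shown as a further gene with a match. Capitals mark the match in 30 bases at chr13:29595662-29595691 on the minus strand, at chr11:62881719-62881748 on the plus strand, where they read as the reverse complement, and at chr12:46266501-46266530 on the minus strand.
SLC7A1: ggcgcactgcTGATGAAACctggcgccgga
SLC3A2: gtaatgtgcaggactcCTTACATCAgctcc
SLC38A1: cagacccgaaTGATGAAAAgggatcagcta
The remaining members with a match were SLC39A11 and SLC9A9, and SLC7A5 was searched and held none. A match describes letters and does not show binding. SLC38A1, a sodium-coupled importer of glutamine that was picked for its match after its values were seen, had 41.9 and 42.2 FPKM in si1, 42.2 and 41.4 FPKM in si2, and 52.6 and 53.3 FPKM in NC. All 4 knockdown libraries lay below NC (log2 fold change -0.33, SE 0.048, adjusted p 0.00461). The SLC38A1 call ended without NC replicate 1 and NC replicate 2 in turn (adjusted p 0.0556 and 0.0651), in a range of 4.63e-05 to 0.155 over its 12 alternatives.

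In the SLC6 family, SLC6A9 fell in both groups together. SLC6A9 (chr1:43991500-44031467), the glycine importer GlyT1, had 12.1 and 10.9 FPKM in si1, 9.99 and 10.8 FPKM in si2, and 19.1 and 18.6 FPKM in NC. All knockdown libraries lay below NC (log2 fold change -0.73, SE 0.069, adjusted p 0.00101). The SLC6A9 call held in all of its alternatives (adjusted p 2.05e-08 to 0.0439 over its 12 alternatives). SLC6A17 (chr1:110150486-110202202), a carrier of neutral amino acids known from synaptic vesicles, had 1.04 and 0.916 FPKM in si1, 0.705 and 0.767 FPKM in si2, and 2.61 and 2.47 FPKM in NC. It was low in every library and lowest in si2, with a log2 fold change of -0.93 in both groups together. Its means in si1 and in si2 were below 1 FPKM, so this is given with no test.

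Among carriers of lysosomes, SLC36A1 fell in both groups together and SLC38A7 fell in si2. SLC36A1 (chr5:151437046-151492381), a proton-coupled exporter of small amino acids from lysosomes, had 4.28 and 3.61 FPKM in si1, 4.69 and 4.51 FPKM in si2, and 7.72 and 7.30 FPKM in NC. All 4 knockdown libraries lay below NC (log2 fold change -0.69, SE 0.081, adjusted p 0.00209 in both groups together). The SLC36A1 call held in every alternative but the single knockdown group (adjusted p 2.31e-07 to 0.0665 over its 12 alternatives). SLC38A7, a lysosomal exporter of glutamine, had 12.5 and 9.36 FPKM in si1, 4.14 and 4.85 FPKM in si2, and 10.4 and 8.73 FPKM in NC. The si2 libraries stood below all others (log2 fold change -0.94, SE 0.15, adjusted p 0.00454), and si1 overlapped with NC. Its fall in si2 held in all of its alternatives (adjusted p 6.54e-07 to 0.0434 over its 11 alternatives). Of 10 members known from lysosomes or endosomes, 2 fell in both groups together and limma called none higher, against 1 at an unadjusted p under 0.05 and 1 with limma-voom. SLC43A2, a leucine carrier of the plasma membrane with low expression, had 2.33 and 2.36 FPKM in si1, 0.871 and 0.873 FPKM in si2, and 1.30 and 1.32 FPKM in NC. It rose in si1 (log2 fold change 0.53, SE 0.13, adjusted p 0.0243). The SLC43A2 call ended with no filter on low genes (adjusted p 0.0851) and without si1 replicate 1, si1 replicate 2, NC replicate 1 and NC replicate 2 in turn (adjusted p 0.0786, 0.0893, 0.114 and 0.101), in a range of 3.41e-05 to 0.114 over its 11 alternatives.

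Of 25 genes of lysosomal amino acid sensing, which report amino acid supply to the mTORC1 kinase, 22 were tested. In both groups together 1 fell, while limma called none higher, against 0 at an unadjusted p under 0.05 and 0 with limma-voom. There were 1 higher and 2 lower in si1, and 1 higher and 4 lower in si2. The gene that fell in both groups together was SESN2, a leucine sensor and stress-response gene, with 10.4 and 9.17 FPKM in si1, 18.9 and 18.9 FPKM in si2, and 18.4 and 18.1 FPKM in NC. Its fall lay in si1 (log2 fold change -0.84, SE 0.077, adjusted p 0.000688), and the log2 fold change in si2 was 0.05 with an adjusted p of 0.678. The call in si1 held in all of its alternatives (adjusted p 2.38e-07 to 0.0114 over its 11 alternatives), and the call for both groups together ended without NC replicate 1 and NC replicate 2 in turn (adjusted p 0.0813 and 0.0699), in a range of 0.000401 to 0.629 over its 12 alternatives. RPTOR, a subunit of mTORC1, had a log2 fold change of -0.23 in both groups together, without a call in any comparison. FLCN and FNIP1, regulators of the Rag GTPases that recruit mTORC1, had log2 fold changes of -0.17 and -0.16 in both groups together, without a call there. In si2 by itself FLCN fell (log2 fold change -0.41, SE 0.12, adjusted p 0.0394), a call that ended with no filter on low genes (adjusted p 0.146) and without si1 replicate 1, si1 replicate 2, si2 replicate 1, NC replicate 1 and NC replicate 2 in turn (adjusted p 0.0552, 0.0552, 0.189, 0.0744 and 0.206), in a range of 0.00177 to 0.206 over its 11 alternatives. FNIP1 fell in si2 as well (log2 fold change -0.29, SE 0.074, adjusted p 0.0271), a call that ended with no filter on low genes (adjusted p 0.0601) and without si2 replicate 1, si2 replicate 2, NC replicate 1 and NC replicate 2 in turn (adjusted p 0.127, 0.0959, 0.143 and 0.104), in a range of 0.00761 to 0.143 over its 11 alternatives.

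**Figure D3:**
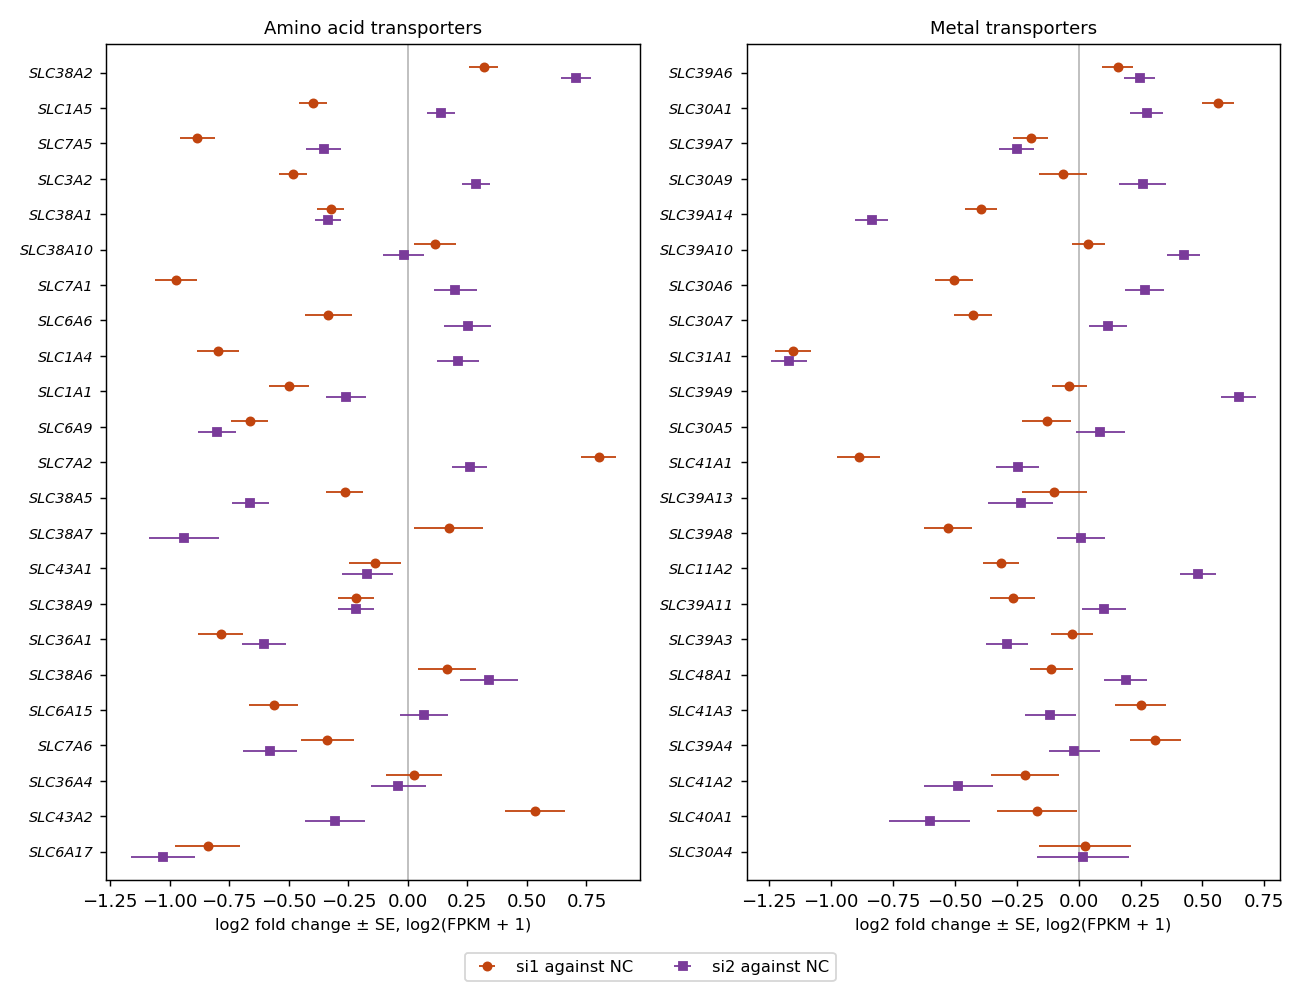
Log2 fold change ± SE against NC (x axis) of each amino acid carrier (left) and each metal carrier (right) in si1 (circles) and in si2 (squares), with genes in order of mean FPKM from the top. SLC6A9, SLC6A17, SLC36A1 and SLC31A1 lie left of 0 in si1 and in si2. SLC7A1 lies at -0.97 in si1 and 0.20 in si2, and SLC38A2, SLC7A2 and SLC30A1 lie right of 0 in both.

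Among the 14 sugar carriers, 2 rose and 4 fell in both groups together, with 1 higher and 2 lower in si1, 1 higher and 5 lower in si2 and a median log2 fold change of -0.04 in both groups together. Across alternatives the count for both groups together ran from 1 to 6. SLC37A2 (chr11:125063067-125090312), an exchanger of glucose 6-phosphate and phosphate in the endoplasmic reticulum, had 12.8 and 11.6 FPKM in si1, 27.8 and 28.3 FPKM in si2, and 9.88 and 10.3 FPKM in NC. Its rise in si2 was the largest of any member there (log2 fold change 1.39, SE 0.074, adjusted p 0.000123). In si1 both libraries were above NC without a call (log2 fold change 0.25, SE 0.074, adjusted p 0.0504). The rise in si2 held in all of its alternatives (adjusted p 9.71e-13 to 0.00338 over its 11 alternatives).

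SLC45A3 (chr1:205657851-205680459), a sugar carrier known as prostein from prostate epithelium, had 1.65 and 1.66 FPKM in si1, 1.37 and 1.72 FPKM in si2, and 3.91 and 3.92 FPKM in NC. Each knockdown library lay below NC (log2 fold change -0.92, SE 0.10, adjusted p 0.00164). The SLC45A3 call held in all of its alternatives (adjusted p 1.12e-06 to 0.0294 over its 12 alternatives). Its relative SLC45A4 had 2.28 and 1.81 FPKM in si1, 2.44 and 1.77 FPKM in si2, and 3.45 and 3.27 FPKM in NC and fell as well (log2 fold change -0.51, SE 0.12, adjusted p 0.0292). The SLC45A4 call ended with no filter on low genes (adjusted p 0.135) and without si1 replicate 2, si2 replicate 2, NC replicate 1 and NC replicate 2 in turn (adjusted p 0.0623, 0.057, 0.171 and 0.137), in a range of 0.00011 to 0.171 over its 12 alternatives. SLC50A1, a glucose carrier of the SWEET family, had 15.2 and 15.8 FPKM in si1, 12.8 and 12.9 FPKM in si2, and 10.2 and 11.8 FPKM in NC. Its knockdown libraries all lay above NC (log2 fold change 0.34, SE 0.073, adjusted p 0.0194). The SLC50A1 call ended with no filter on low genes (adjusted p 0.0744) and without si2 replicate 1, si2 replicate 2 and NC replicate 1 in turn (adjusted p 0.0539, 0.0545 and 0.161), in a range of 0.00911 to 0.307 over its 12 alternatives. SLC2A6, a glucose transporter of intracellular membranes, had 10.6 and 9.73 FPKM in si1, 8.87 and 10.4 FPKM in si2, and 10.01 and 11.6 FPKM in NC and was not called in any of the 4 comparisons.

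Among the 23 metal carriers, 4 rose and 4 fell in both groups together, with 1 higher and 7 lower in si1, 6 higher and 6 lower in si2 and a median log2 fold change of -0.08 in both groups together. SLC40A1 is among the falls counted in si2. Its si2 mean was below 1 FPKM, so that fall is not to be read as a test. Across alternatives the count for both groups together ran from 1 to 11, with the lowest in the fit with 1 knockdown group. After SLC31A1 the largest falls were in an importer of iron and zinc and a magnesium carrier. SLC39A14 (chr8:22367249-22434129), which imports zinc, iron and manganese, had 13.5 and 13.5 FPKM in si1, 9.65 and 9.65 FPKM in si2, and 18.3 and 17.7 FPKM in NC. All knockdown libraries lay below NC (log2 fold change -0.62, SE 0.056, adjusted p 0.00094), and si1 stayed above si2 (log2 difference 0.44, SE 0.065, adjusted p 0.00223). The fall held in every alternative but the single knockdown group (adjusted p 6.65e-08 to 0.179 over its 12 alternatives). SLC41A1, a magnesium carrier, had 6.53 and 5.71 FPKM in si1, 10.4 and 9.82 FPKM in si2, and 11.7 and 12.6 FPKM in NC. Its si1 libraries were the lowest (log2 fold change -0.89, SE 0.087, adjusted p 0.000918), and si2 lay between si1 and NC without a call (log2 fold change -0.25, adjusted p 0.0745). The call in si1 held in all of its alternatives (adjusted p 3.38e-08 to 0.0132 over its 11 alternatives).

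Zinc carriers moved in both directions. SLC30A1 (chr1:211571568-211578742), the zinc exporter of the plasma membrane, had 33.7 and 35.97 FPKM in si1, 28.8 and 27.9 FPKM in si2, and 23.7 and 22.8 FPKM in NC. All knockdown libraries were above NC (log2 fold change 0.42, SE 0.057, adjusted p 0.00351), with the higher level in si1. The SLC30A1 call ended without NC replicate 2 (adjusted p 0.0519), in a range of 1.26e-05 to 0.222 over its 12 alternatives. SLC39A6, a zinc importer and the most abundant metal carrier, had 42.8 and 45.5 FPKM in si1, 48.1 and 46.02 FPKM in si2, and 40.1 and 38.9 FPKM in NC. It rose by a small amount (log2 fold change 0.20, SE 0.054, adjusted p 0.04). The SLC39A6 call ended with no filter on low genes (adjusted p 0.0832) and without si2 replicate 1, si2 replicate 2, NC replicate 1 and NC replicate 2 in turn (adjusted p 0.122, 0.0831, 0.168 and 0.243), in a range of 0.015 to 0.376 over its 12 alternatives. SLC39A10, its close relative, had 12.2 and 12.1 FPKM in si1, 16.5 and 15.9 FPKM in si2, and 12.1 and 11.6 FPKM in NC and rose in si2 (log2 fold change 0.42, SE 0.067, adjusted p 0.00481). The SLC39A10 call held in all of its alternatives (adjusted p 9.69e-05 to 0.0469 over its 11 alternatives). SLC39A9, a zinc carrier of the Golgi, had 9.12 and 8.80 FPKM in si1, 15.4 and 14.6 FPKM in si2, and 9.44 and 9.02 FPKM in NC. The si2 libraries lay above all others (log2 fold change 0.65, SE 0.071, adjusted p 0.00123) and si1 overlapped with NC. That rise held in all of its alternatives (adjusted p 4.58e-07 to 0.0172 over its 11 alternatives). SLC39A7, which releases zinc from the endoplasmic reticulum, had 24.5 and 24.2 FPKM in si1, 22.4 and 24.4 FPKM in si2, and 27.1 and 28.9 FPKM in NC and fell (log2 fold change -0.22, SE 0.062, adjusted p 0.0447). The SLC39A7 call ended with no filter on low genes (adjusted p 0.103) and without si1 replicate 1, si1 replicate 2, si2 replicate 1, si2 replicate 2, NC replicate 1 and NC replicate 2 in turn (adjusted p 0.0502, 0.062, 0.125, 0.0627, 0.133 and 0.285), in a range of 0.03 to 0.342 over its 12 alternatives.

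The start region of SLC30A1 is shown because it is a known target of the zinc sensor MTF1. The letters TGCACNC and TGCGCNC, the metal response element, were searched on both strands of the same windows, and overlapping matches were counted singly. Of all promoters 29.3% held a match and 8.59% held 2 or more, and of the members 38.7% held one, which are 46 genes. SLC30A1 held 2, beginning 49 bases before and at base 25 after the RefSeq start. They stand in capitals in the 250 bases before the start (chr1:211579162-211579411, minus strand) and in 30 bases behind it (chr1:211579118-211579147, minus strand), where they read as the reverse complement. Both stretches lie upstream of the gene span given for SLC30A1 above, so the RefSeq start differs from the start of the measured gene.
SLC30A1 before the start: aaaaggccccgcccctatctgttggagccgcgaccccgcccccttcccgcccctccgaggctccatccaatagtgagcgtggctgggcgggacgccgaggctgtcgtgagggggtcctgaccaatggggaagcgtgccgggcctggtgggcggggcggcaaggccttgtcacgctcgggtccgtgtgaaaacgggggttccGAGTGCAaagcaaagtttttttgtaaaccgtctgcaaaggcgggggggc
SLC30A1 behind the start: agaccgggccGAGTGCAgctgccgtggccg

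SLC11A2, the ferrous iron importer DMT1, had 5.79 and 5.51 FPKM in si1, 10.6 and 10.5 FPKM in si2, and 7.14 and 7.40 FPKM in NC. Its si1 libraries lay below NC (log2 fold change -0.31, SE 0.072, adjusted p 0.0222) and its si2 libraries above NC (log2 fold change 0.48, SE 0.072, adjusted p 0.00396). The fall in si1 ended without si1 replicate 2, NC replicate 1 and NC replicate 2 in turn (adjusted p 0.0624, 0.0989 and 0.128), in a range of 0.00424 to 0.128 over its 11 alternatives. The rise in si2 held in all of its alternatives (adjusted p 1.65e-05 to 0.037 over its 11 alternatives). Of 21 genes of iron handling 15 were tested, and 5 rose and 1 fell in both groups together, beside 8.73% higher and 11.8% lower of all genes. In si2 4 rose and 1 fell, beside 13.6% higher and 15.4% lower of all genes. In si1 5 rose, beside 9.47% of all genes higher. There limma called none of the list lower, against 0 at an unadjusted p under 0.05 and 0 with limma-voom. FTL, the ferritin light chain, had 7438 and 8030.0 FPKM in si1, 6377 and 6143 FPKM in si2, and 5501 and 5440.0 FPKM in NC and rose (log2 fold change 0.35, SE 0.040, adjusted p 0.00209). The FTL call ended with no filter on low genes (adjusted p 0.6), in a range of 5.35e-07 to 0.6 over its 12 alternatives. HMOX1, the haem oxygenase that frees iron from haem, had 9.69 and 11.5 FPKM in si1, 6.58 and 6.22 FPKM in si2, and 11.3 and 10.5 FPKM in NC and fell in si2 (log2 fold change -0.69, SE 0.097, adjusted p 0.0031). The HMOX1 call held in all of its alternatives (adjusted p 0.000175 to 0.0296 over its 11 alternatives). STEAP1 and CYBRD1, the first a homologue of metal reductases and the second a ferric reductase, rose in si2 with log2 fold changes of 0.59 and 0.51, at adjusted p of 0.00285 and 0.00255. The adjusted p ran over 0.00022 to 0.028 over its 11 alternatives for STEAP1 and over 2.09e-06 to 0.0287 over its 11 alternatives for CYBRD1.

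Among the 25 ion carriers, 5 fell in both groups together and limma called none higher, against 2 at an unadjusted p under 0.05 and 1 with limma-voom. There were 1 higher and 3 lower in si1, and 3 higher and 8 lower in si2. SLC26A6, given below with no test in si2, is among the falls in both groups together and in si2. SLC4A3, also with an si2 mean below 1 FPKM, is among the falls in si2, which is not to be read as a test. The median log2 fold change of the class was -0.15 in both groups together, and over the alternatives the count there ran from 0 to 9. SLC20A1 (chr2:112645857-112663827), a sodium-phosphate importer that also serves as a retrovirus receptor, was the most abundant of them and had 34.4 and 36.2 FPKM in si1, 97.3 and 90.7 FPKM in si2, and 57.2 and 55.04 FPKM in NC. Relative to NC it fell in si1 (log2 fold change -0.65, SE 0.064, adjusted p 0.000911) and rose in si2 (log2 fold change 0.73, SE 0.064, adjusted p 0.000513), with no overlap among the 3 groups. Its fall held in all of its alternatives (adjusted p 8.83e-08 to 0.0143 over its 11 alternatives). Its rise held in all of its alternatives (adjusted p 3.18e-09 to 0.0101 over its 11 alternatives).

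Among anion and sodium-proton exchangers, SLC9A9 fell in si2, SLC9A2 fell in both groups together and SLC26A11 rose in si1. SLC26A6, an exchanger of chloride, bicarbonate and oxalate, had 2.33 and 2.36 FPKM in si1, 0.844 and 0.965 FPKM in si2, and 2.85 and 2.58 FPKM in NC. The si2 libraries were far below the rest, at a log2 fold change of -0.96 that is given with no test, since the si2 mean was below 1 FPKM. In si1 it lay just below NC without a call (log2 fold change -0.15, adjusted p 0.411). SLC9A9, a sodium-proton exchanger of endosomes, had 4.46 and 3.74 FPKM in si1, 2.31 and 2.98 FPKM in si2, and 5.39 and 4.83 FPKM in NC. Its fall in si2 (log2 fold change -0.75, SE 0.13, adjusted p 0.00604) held in all of its alternatives (adjusted p 8.92e-05 to 0.0468 over its 11 alternatives). SLC9A2, a sodium-proton exchanger of epithelial membranes, had 1.64 and 1.84 FPKM in si1, 1.52 and 1.66 FPKM in si2, and 2.62 and 2.45 FPKM in NC and fell in both groups together (log2 fold change -0.41, SE 0.10, adjusted p 0.0304). The SLC9A2 call ended with no filter on low genes (adjusted p 0.109) and without si1 replicate 1, si2 replicate 1, si2 replicate 2, NC replicate 1 and NC replicate 2 in turn (adjusted p 0.0541, 0.071, 0.0563, 0.189 and 0.137), in a range of 0.00218 to 0.189 over its 12 alternatives. SLC12A7, an exporter of potassium and chloride, had 35.5 and 27.04 FPKM in si1, 22.8 and 23.6 FPKM in si2, and 30.8 and 32.3 FPKM in NC. Its si2 libraries lay below the rest (log2 fold change -0.43, SE 0.12, adjusted p 0.0348). The SLC12A7 call ended with no filter on low genes (adjusted p 0.149) and without si2 replicate 1, si2 replicate 2, NC replicate 1 and NC replicate 2 in turn (adjusted p 0.137, 0.0969, 0.107 and 0.158), in a range of 0.000624 to 0.158 over its 11 alternatives. SLC26A11, a sulfate and chloride carrier, had 9.17 and 8.11 FPKM in si1, 4.75 and 4.69 FPKM in si2, and 5.14 and 5.85 FPKM in NC and rose in si1 (log2 fold change 0.57, SE 0.094, adjusted p 0.00639). The SLC26A11 call ended without NC replicate 1 (adjusted p 0.0553), in a range of 8.34e-05 to 0.0553 over its 11 alternatives. SLC4A2, the chloride-bicarbonate exchanger AE2, had 29.8 and 24.7 FPKM in si1, 20.8 and 22.8 FPKM in si2, and 24.98 and 26.9 FPKM in NC and was not called in any comparison.

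The sodium gradient used by many of these carriers is made by the Na,K-ATPase. Of 14 listed subunit genes 4 were tested, and in both groups together limma called none higher, against 0 at an unadjusted p under 0.05 and 0 with limma-voom, while limma called none lower, against 0 at an unadjusted p under 0.05 and 0 with limma-voom. The log2 fold changes there lay between -0.11 for ATP1B1 and 0.08 for ATP1B3. ATP1B1, the main beta subunit, had 45.6 and 49.5 FPKM in si1, 83.4 and 78.3 FPKM in si2, and 67.3 and 66.6 FPKM in NC. It fell in si1 (log2 fold change -0.49, SE 0.066, adjusted p 0.00285) and rose in si2 (log2 fold change 0.27, SE 0.066, adjusted p 0.0226), with no overlap among the 3 groups. The fall held in all of its alternatives (adjusted p 2.13e-05 to 0.0322 over its 11 alternatives). The rise ended with no filter on low genes (adjusted p 0.0704) and without si2 replicate 1, si2 replicate 2, NC replicate 1 and NC replicate 2 in turn (adjusted p 0.144, 0.0606, 0.103 and 0.123), in a range of 0.00454 to 0.144 over its 11 alternatives. FXYD5, a regulator of the pump, had a log2 difference of -0.29 between si1 and si2. Of 8 genes that control the cation-chloride carriers 4 were tested, and in both groups together limma called none higher, against 1 at an unadjusted p under 0.05 and 0 with limma-voom, while limma called none lower, against 1 at an unadjusted p under 0.05 and 1 with limma-voom. The kinase OXSR1 had a log2 fold change of -0.37 in si1, and the kinase STK39 of 0.44 in si2, at adjusted p of 0.0218 and 0.0149. The call of OXSR1 ended with no filter on low genes (adjusted p 0.0723) and without si1 replicate 1, si1 replicate 2, NC replicate 1 and NC replicate 2 in turn (adjusted p 0.0571, 0.0641, 0.0592 and 0.136), in a range of 0.00371 to 0.136 over its 11 alternatives, and that of STK39 ended with no filter on low genes (adjusted p 0.0665) and without si2 replicate 1, si2 replicate 2 and NC replicate 1 in turn (adjusted p 0.0574, 0.0769 and 0.0937), in a range of 0.00135 to 0.0937 over its 11 alternatives. WNK1 and CUL3 had log2 fold changes of -0.01 and 0.06 in both groups together, without a call.

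In the SLC35 family, SLC35F3 (chr1:233904933-234324516), a member without a settled substrate that has been proposed to carry thiamine, had 5.15 and 5.71 FPKM in si1, 4.89 and 4.43 FPKM in si2, and 19.2 and 17.9 FPKM in NC. All 4 knockdown libraries lay far below both NC libraries. Its log2 fold change was -1.70 in both groups together, -1.61 in si1 and -1.79 in si2, beside -0.69 to 0.30 for the other 21 members in both groups together. Of these 21, 7 fell in both groups together and limma called none higher, against 1 at an unadjusted p under 0.05 and 0 with limma-voom. In si1 8 fell and limma called none higher, against 0 at an unadjusted p under 0.05 and 1 with limma-voom, and in si2 3 rose and 5 fell. Across alternatives the count for both groups together ran from 0 to 8, with the lowest in the fit with 1 knockdown group. Of the other members with an SLC35F or SLC35G symbol, which are SLC35F2, SLC35F5, SLC35F6 and SLC35G2, 1 fell in both groups together. This was SLC35G2, which lies outside the naming rule and had a log2 fold change of -0.28 and an adjusted p of 0.049. That call is close to the threshold, and its alternatives are not given. By itself si1 had 1 of the 4 called lower, and si2 had 0 called in either direction.

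SLC35A4 (chr5:140564456-140569103), a Golgi protein whose substrate is unsettled, had 13.8 and 12.2 FPKM in si1, 11.5 and 9.997 FPKM in si2, and 20.2 and 19.2 FPKM in NC. All knockdown libraries lay below NC (log2 fold change -0.69, SE 0.081, adjusted p 0.00215). The SLC35A4 call held in every alternative but the single knockdown group (adjusted p 2.31e-07 to 0.0948 over its 12 alternatives). SLC35E1, without a known substrate, had 8.22 and 7.57 FPKM in si1, 5.08 and 5.38 FPKM in si2, and 9.86 and 10.2 FPKM in NC. It fell in both groups together (log2 fold change -0.57, SE 0.068, adjusted p 0.0022), and si1 lay above si2 (log2 difference 0.51, SE 0.078, adjusted p 0.00261). The fall of SLC35E1 held in every alternative but the single knockdown group (adjusted p 1.1e-06 to 0.257 over its 12 alternatives). In si1 by itself the fall of SLC35E1 against NC held in 4 of its 11 alternatives. SLC35C2, linked to fucose supply in the Golgi, had 4.27 and 4.53 FPKM in si1, 4.15 and 4.68 FPKM in si2, and 6.77 and 7.09 FPKM in NC. Its libraries in si1 and si2 overlapped with each other and lay below NC (log2 fold change -0.55, SE 0.076, adjusted p 0.00362). The SLC35C2 call ended without NC replicate 2 (adjusted p 0.0506), in a range of 4.14e-06 to 0.0683 over its 12 alternatives.

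SLC35B2, which brings the sulfate donor PAPS into the Golgi and was the most abundant of the family, had 38.95 and 35.3 FPKM in si1, 34.9 and 36.9 FPKM in si2, and 37.8 and 38.8 FPKM in NC and was not called in any comparison. SLC35F6, the next by level, was not called in any comparison either, at a mean of 23.5 FPKM. SLC35B4, a carrier of UDP-xylose and UDP-N-acetylglucosamine, had 5.76 and 5.49 FPKM in si1, 11.9 and 11.2 FPKM in si2, and 9.48 and 8.92 FPKM in NC. Relative to NC it fell in si1 (log2 fold change -0.62, SE 0.076, adjusted p 0.00193) and rose in si2 (log2 fold change 0.30, SE 0.076, adjusted p 0.027). The fall held in all of its alternatives (adjusted p 4.87e-06 to 0.0251 over its 11 alternatives). The rise ended with no filter on low genes (adjusted p 0.0651) and without si2 replicate 1, si2 replicate 2, NC replicate 1 and NC replicate 2 in turn (adjusted p 0.15, 0.0732, 0.0851 and 0.158), in a range of 0.00541 to 0.158 over its 11 alternatives. SLC35A5, a Golgi relative of the UDP-sugar carriers, had 4.51 and 5.53 FPKM in si1, 10.1 and 11.1 FPKM in si2, and 8.68 and 7.64 FPKM in NC and fell in si1 (log2 fold change -0.61, SE 0.11, adjusted p 0.00917). The SLC35A5 call ended with no filter on low genes (adjusted p 0.0578) and without NC replicate 1 (adjusted p 0.0718), in a range of 0.000132 to 0.0718 over its 11 alternatives. SLC35E2A and SLC35E2B are near-identical copies between which the counting could split reads, so their levels of 1.28 and 14.3 FPKM are uncertain.

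The enzymes that make nucleotide sugars and PAPS were measured beside their carriers. All 27 listed genes were tested, and 1 rose and 6 fell in both groups together, with a median log2 fold change of -0.13. There were 1 higher and 7 lower in si1, and 3 higher and 9 lower in si2. GALT, given below with no test, is among the 9. The shares of all genes were 8.73% higher and 11.8% lower in both groups together. They were 9.47% and 12.9% in si1, and 13.6% and 15.4% in si2. GNPNAT1, an acetyltransferase of UDP-N-acetylglucosamine synthesis, had 10.7 and 10.6 FPKM in si1, 5.87 and 6.50 FPKM in si2, and 14.3 and 12.6 FPKM in NC and fell in both groups together (log2 fold change -0.66, SE 0.076, adjusted p 0.00202). The GNPNAT1 call held in every alternative but the single knockdown group (adjusted p 1.26e-06 to 0.316 over its 12 alternatives). In si1 by itself GNPNAT1 fell less (log2 fold change -0.31, adjusted p 0.0454), a call that held in 2 of its 11 alternatives. PAPSS2, which makes PAPS, had 6.62 and 6.82 FPKM in si1, 7.38 and 6.87 FPKM in si2, and 10.1 and 10.8 FPKM in NC and fell (log2 fold change -0.53, SE 0.067, adjusted p 0.00271). The PAPSS2 call held in every alternative but the single knockdown group (adjusted p 2.96e-05 to 0.0707 over its 12 alternatives). UAP1, which completes UDP-N-acetylglucosamine, had 21.6 and 23.1 FPKM in si1, 26.2 and 24.9 FPKM in si2, and 33.9 and 30.9 FPKM in NC and fell (log2 fold change -0.42, SE 0.065, adjusted p 0.00576). The UAP1 call ended without NC replicate 1 (adjusted p 0.0726), in a range of 6.24e-05 to 0.17 over its 12 alternatives. GALT, of galactose metabolism, had 2.33 and 1.69 FPKM in si1, 1.03 and 0.841 FPKM in si2, and 2.47 and 1.95 FPKM in NC. Its si2 libraries lay below the rest at a log2 fold change of -0.73, given with no test since its si2 mean was below 1 FPKM, and it was not called in both groups together. Of 20 members known from the Golgi or the endoplasmic reticulum, 4 fell in both groups together and limma called none higher, against 2 at an unadjusted p under 0.05 and 1 with limma-voom. In si1 7 of the 20 fell and limma called none higher, against 0 at an unadjusted p under 0.05 and 0 with limma-voom, and in si2 5 rose and 3 fell.

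**Figure D4:**
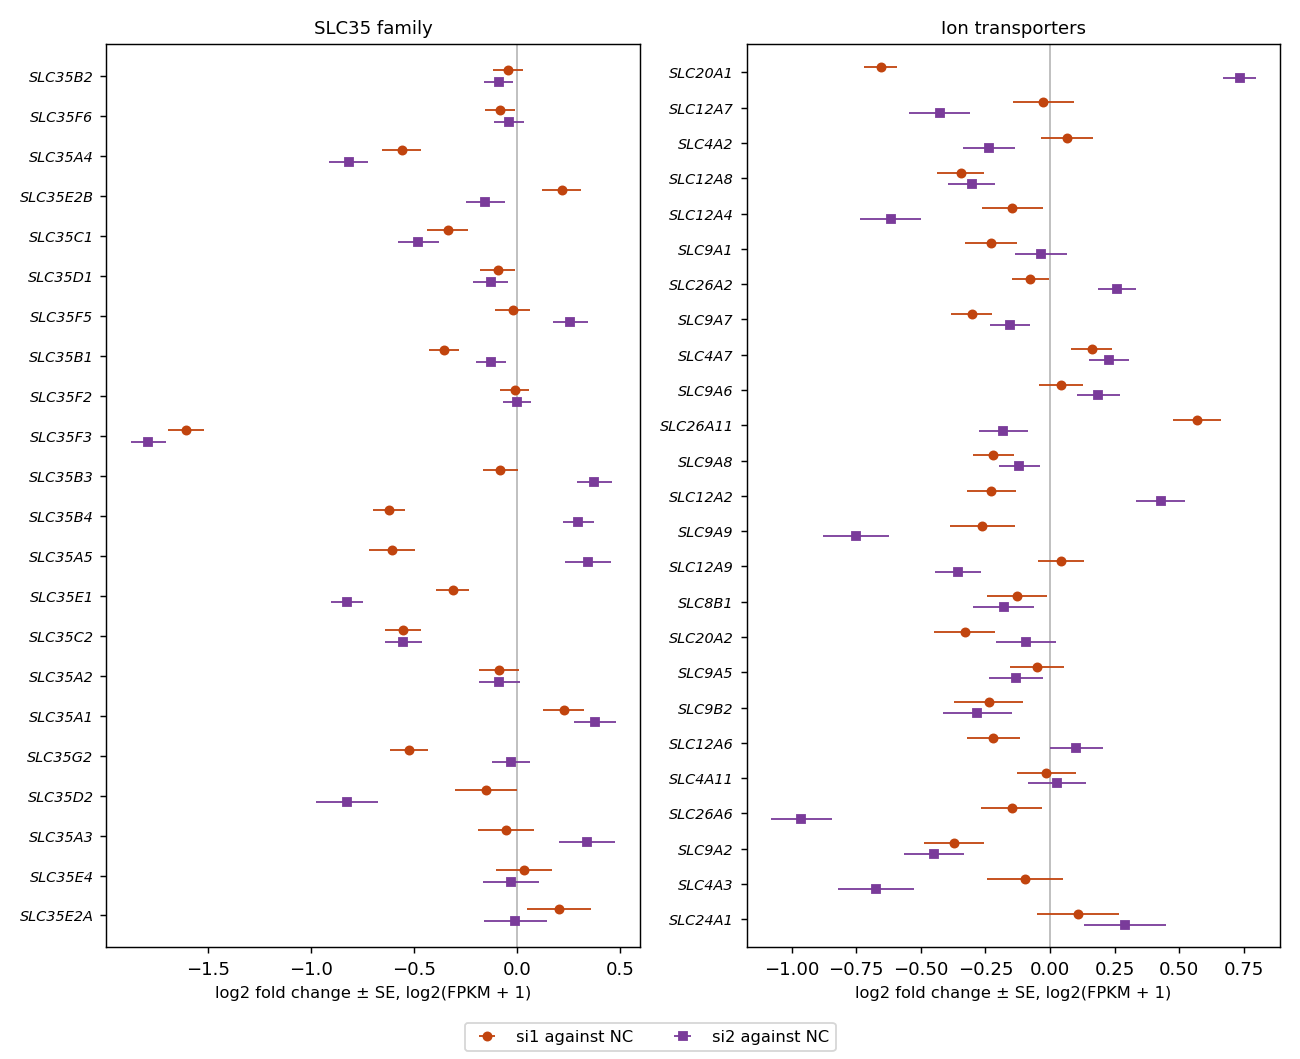
Log2 fold change ± SE against NC (x axis) of each SLC35 gene (left) and each ion carrier (right) in si1 (circles) and in si2 (squares), with genes in order of mean FPKM from the top. SLC35F3 stands at -1.61 in si1 and -1.79 in si2, SLC35A4, SLC35E1 and SLC35C2 lie left of 0 in both, and SLC20A1 lies at -0.65 in si1 and 0.73 in si2.

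All 3 carriers of nucleosides and nucleobases fell in si2, where 15.4% of all genes tested were called lower. SLC29A1 (chr6:44219505-44234151), the equilibrative nucleoside transporter ENT1, had 7.27 and 7.24 FPKM in si1, 3.04 and 2.99 FPKM in si2, and 8.01 and 7.45 FPKM in NC. Its si2 libraries were far below the rest (log2 fold change -1.12, SE 0.078, adjusted p 0.000267), and si1 lay just below NC without a call (log2 fold change -0.08, adjusted p 0.505). The fall in si2 held in all of its alternatives (adjusted p 3.71e-08 to 0.00556 over its 11 alternatives). SLC29A2, its relative ENT2, had 4.79 and 4.24 FPKM in si1, 1.54 and 2.38 FPKM in si2, and 3.65 and 3.37 FPKM in NC. It fell in si2 (log2 fold change -0.62, SE 0.15, adjusted p 0.0211). The SLC29A2 call ended with no filter on low genes (adjusted p 0.109) and without si2 replicate 1, NC replicate 1 and NC replicate 2 in turn (adjusted p 0.0828, 0.105 and 0.0812), in a range of 0.0059 to 0.109 over its 11 alternatives. SLC43A3, a carrier of purine nucleobases, had 8.19 and 7.95 FPKM in si1, 11.997 and 10.4 FPKM in si2, and 14.2 and 14.1 FPKM in NC and fell in both groups together (log2 fold change -0.53, SE 0.072, adjusted p 0.0037). The SLC43A3 call held in every alternative but the single knockdown group (adjusted p 1.25e-05 to 0.239 over its 12 alternatives). In si2 by itself its fall (log2 fold change -0.31, SE 0.084, adjusted p 0.03) ended with no filter on low genes (adjusted p 0.0866) and without si2 replicate 2, NC replicate 1 and NC replicate 2 in turn (adjusted p 0.161, 0.129 and 0.129), in a range of 0.00865 to 0.161 over its 11 alternatives. Across alternatives 1 to 3 carriers of the class were called in si2.

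Of 8 carboxylate carriers 1 fell in both groups together, 3 in si1 and 4 in si2, and in both groups together limma called none higher, against 1 at an unadjusted p under 0.05 and 0 with limma-voom. SLC16A1, the lactate and pyruvate carrier MCT1 and the most abundant of the class, had 29.9 and 33.5 FPKM in si1, 38.7 and 39.6 FPKM in si2, and 42.2 and 39.6 FPKM in NC. Its si1 libraries lay below NC (log2 fold change -0.36, SE 0.074, adjusted p 0.0151) and si2 overlapped with NC, and the call in si1 ended with no filter on low genes (adjusted p 0.0585) and without NC replicate 1 and NC replicate 2 in turn (adjusted p 0.114 and 0.0581), in a range of 0.000784 to 0.114 over its 11 alternatives. SLC16A9, linked to carnitine transport, had 2.46 and 2.31 FPKM in si1, 1.53 and 1.14 FPKM in si2, and 3.55 and 3.54 FPKM in NC. It fell further in si2 (log2 fold change -0.97, SE 0.12, adjusted p 0.00199) than in si1 (log2 fold change -0.43, SE 0.12, adjusted p 0.0463), with a log2 difference of 0.54 between si1 and si2, adjusted p 0.0124. The call between si1 and si2 ended with no filter on low genes (adjusted p 0.0606) and without si1 replicate 1 or si2 replicate 2. The fall in si2 held in all of its alternatives (adjusted p 7.52e-06 to 0.0213 over its 11 alternatives), and that in si1 ended with no filter on low genes (adjusted p 0.155) and with median centring (adjusted p 0.0516) and with a pseudocount of 0.1 (adjusted p 0.0639) and without si1 replicate 1, si1 replicate 2, NC replicate 1 and NC replicate 2 in turn (adjusted p 0.0986, 0.142, 0.182 and 0.168), in a range of 0.0127 to 0.182 over its 11 alternatives.

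Some carriers need a chaperone subunit, and of 7 listed subunits 4 were tested. In si2, where 13.6% of all genes were called higher and 15.4% lower, 3 rose and 1 fell. In si1 limma called none higher, against 0 at an unadjusted p under 0.05 and 0 with limma-voom. It also called none lower there, against 0 at an unadjusted p under 0.05 and 0 with limma-voom. BSG, the partner of SLC16A1, had 110.3 and 103 FPKM in si1, 82.8 and 84.9 FPKM in si2, and 101 and 105 FPKM in NC and fell in si2 (log2 fold change -0.29, SE 0.060, adjusted p 0.0122). The BSG call ended without si2 replicate 1, si2 replicate 2, NC replicate 1 and NC replicate 2 in turn (adjusted p 0.0834, 0.0561, 0.0561 and 0.0948), in a range of 0.00142 to 0.0948 over its 11 alternatives. NPTN, a relative of BSG, had 37.1 and 39.8 FPKM in si1, 55.7 and 55.6 FPKM in si2, and 40.8 and 39.98 FPKM in NC and rose in si2 (log2 fold change 0.45, SE 0.061, adjusted p 0.00262). The NPTN call held in all of its alternatives (adjusted p 1.88e-05 to 0.0304 over its 11 alternatives). EMB, another relative, had 9.27 and 10.97 FPKM in si1, 15.3 and 14.03 FPKM in si2, and 10.97 and 10.8 FPKM in NC and rose in si2 (log2 fold change 0.40, SE 0.093, adjusted p 0.0202). The EMB call ended with no filter on low genes (adjusted p 0.0802) and without si2 replicate 1, si2 replicate 2, NC replicate 1 and NC replicate 2 in turn (adjusted p 0.115, 0.0509, 0.0901 and 0.103), in a range of 0.00107 to 0.115 over its 11 alternatives. OSTM1, the subunit of a lysosomal chloride exchanger, had 18.6 and 22.5 FPKM in si1, 38.05 and 37.4 FPKM in si2, and 23.1 and 23.5 FPKM in NC. Its rise in si2 (log2 fold change 0.67, SE 0.091, adjusted p 0.00266) held in all of its alternatives (adjusted p 2.86e-07 to 0.0248 over its 11 alternatives).

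Of 7 carriers of lipids and choline 3 rose in si1, where limma called none lower, against 0 at an unadjusted p under 0.05 and 0 with limma-voom, and 2 fell in si2, where limma called none higher, against 0 at an unadjusted p under 0.05 and 0 with limma-voom. SLC44A2 (chr19:10602457-10644559), a choline transporter-like protein, had 13.2 and 12.9 FPKM in si1, 3.88 and 3.87 FPKM in si2, and 10.2 and 10.9 FPKM in NC. The si2 libraries were far below NC (log2 fold change -1.24, SE 0.072, adjusted p 0.000165) and the si1 libraries above it (log2 fold change 0.29, SE 0.072, adjusted p 0.0305). The fall in si2 held in all of its alternatives (adjusted p 6.77e-10 to 0.00445 over its 11 alternatives), while the rise in si1 ended with no filter on low genes (adjusted p 0.0609) and without si1 replicate 1, si1 replicate 2, si2 replicate 1, si2 replicate 2, NC replicate 1 and NC replicate 2 in turn (adjusted p 0.078, 0.0614, 0.0572, 0.0573, 0.184 and 0.0939), in a range of 0.00866 to 0.184 over its 11 alternatives. SLC27A4, a carrier and activator of fatty acids, had 15.1 and 12.8 FPKM in si1, 11.1 and 10.9 FPKM in si2, and 10.04 and 10.6 FPKM in NC. It rose in si1 (log2 fold change 0.40, SE 0.090, adjusted p 0.0209). The SLC27A4 call ended with no filter on low genes (adjusted p 0.0799) and without si1 replicate 1, NC replicate 1 and NC replicate 2 in turn (adjusted p 0.0513, 0.129 and 0.077), in a range of 0.00384 to 0.129 over its 11 alternatives. SLC44A1, the best known choline carrier of its family, had 10.9 and 10.9 FPKM in si1, 8.79 and 8.91 FPKM in si2, and 8.75 and 9.09 FPKM in NC and rose in si1 (log2 fold change 0.26, SE 0.068, adjusted p 0.0342). The SLC44A1 call ended with no filter on low genes (adjusted p 0.0532) and without si1 replicate 1, si1 replicate 2, si2 replicate 1, si2 replicate 2, NC replicate 1 and NC replicate 2 in turn (adjusted p 0.0665, 0.0706, 0.0668, 0.0669, 0.187 and 0.118), in a range of 0.00406 to 0.187 over its 11 alternatives.

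For the 7 vitamin carriers in both groups together limma called none lower, against 4 at an unadjusted p under 0.05 and 4 with limma-voom, and limma called none higher, against 0 at an unadjusted p under 0.05 and 0 with limma-voom. SLC52A2, a riboflavin importer, was the most abundant and had 27.8 and 24.8 FPKM in si1, 23.8 and 26.6 FPKM in si2, and 25.5 and 29.03 FPKM in NC, without a call in any comparison. SLC19A2, the thiamine importer, had 4.37 and 5.18 FPKM in si1, 6.33 and 6.49 FPKM in si2, and 6.66 and 6.93 FPKM in NC. Its si1 libraries lay below the rest (log2 fold change -0.44, SE 0.092, adjusted p 0.0166). The SLC19A2 call ended with no filter on low genes (adjusted p 0.0687) and without NC replicate 1 and NC replicate 2 in turn (adjusted p 0.0804 and 0.0976), in a range of 0.00392 to 0.0976 over its 11 alternatives. SLC5A6, the sodium-coupled carrier of biotin and pantothenate, had 6.56 and 5.92 FPKM in si1, 4.65 and 4.99 FPKM in si2, and 6.60 and 6.76 FPKM in NC. Its si2 libraries lay below the rest (log2 fold change -0.40, SE 0.084, adjusted p 0.0133). The SLC5A6 call ended without si2 replicate 1, NC replicate 1 and NC replicate 2 in turn (adjusted p 0.0816, 0.0665 and 0.085), in a range of 0.00261 to 0.085 over its 11 alternatives. SLC19A1, the reduced folate carrier, had a log2 fold change of -0.25 in both groups together without a call.

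Of 15 carriers of organic ions and other substrates 2 fell in both groups together, SLC18B1 and SLC22A23, and limma called none higher, against 2 at an unadjusted p under 0.05 and 2 with limma-voom. SLC18B1, a vesicular polyamine carrier, had 7.69 and 6.70 FPKM in si1, 8.46 and 8.99 FPKM in si2, and 9.80 and 11.9 FPKM in NC (log2 fold change -0.40, SE 0.094, adjusted p 0.0252). The SLC18B1 call ended with no filter on low genes (adjusted p 0.112) and without si1 replicate 2, si2 replicate 1, si2 replicate 2 and NC replicate 2 in turn (adjusted p 0.0508, 0.0673, 0.0516 and 0.193), in a range of 0.00401 to 0.266 over its 12 alternatives. SLC22A23, without a settled substrate, had 3.59 and 2.55 FPKM in si1, 2.33 and 2.01 FPKM in si2, and 3.93 and 3.69 FPKM in NC (log2 fold change -0.43, SE 0.12, adjusted p 0.0483). The SLC22A23 call ended with no filter on low genes (adjusted p 0.186) and with median centring (adjusted p 0.0538) and without si1 replicate 2, si2 replicate 1, si2 replicate 2, NC replicate 1 and NC replicate 2 in turn (adjusted p 0.0621, 0.0707, 0.106, 0.232 and 0.175), in a range of 0.000693 to 0.345 over its 12 alternatives. SLC10A3, of unknown substrate and the most abundant of the class, had 56.8 and 49.2 FPKM in si1, 51.2 and 57.5 FPKM in si2, and 60.6 and 60.9 FPKM in NC without a call in any comparison. SLC17A5, the sialic acid exporter of lysosomes, had 15.8 and 17.3 FPKM in si1, 23.03 and 23.5 FPKM in si2, and 15.3 and 17.6 FPKM in NC and rose in si2 (log2 fold change 0.48, SE 0.087, adjusted p 0.00805). The SLC17A5 call ended without NC replicate 1 (adjusted p 0.0559), in a range of 0.000156 to 0.0559 over its 11 alternatives. SLC6A8, the creatine importer, had 8.29 and 8.05 FPKM in si1, 3.89 and 4.67 FPKM in si2, and 4.70 and 5.59 FPKM in NC and rose in si1 (log2 fold change 0.58, SE 0.11, adjusted p 0.0106). The SLC6A8 call ended with no filter on low genes (adjusted p 0.0625) and without NC replicate 1 (adjusted p 0.0769), in a range of 6.94e-05 to 0.0769 over its 11 alternatives. SLC33A1, which takes acetyl-CoA into the endoplasmic reticulum, had 2.30 and 2.72 FPKM in si1, 3.90 and 3.67 FPKM in si2, and 2.22 and 2.44 FPKM in NC and rose in si2 (log2 fold change 0.52, SE 0.11, adjusted p 0.013). The SLC33A1 call ended with no filter on low genes (adjusted p 0.0614) and without si2 replicate 1, NC replicate 1 and NC replicate 2 in turn (adjusted p 0.0744, 0.0778 and 0.0542), in a range of 7.38e-05 to 0.0778 over its 11 alternatives.

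Among the 6 rows that encode no transporter limma called none higher, against 1 at an unadjusted p under 0.05 and 0 with limma-voom in both groups together, and limma called none lower, against 0 at an unadjusted p under 0.05 and 0 with limma-voom. SLC2A4RG, a transcription factor gene named after the glucose transporter GLUT4, had 59.2 and 56.004 FPKM in si1, 34.8 and 37.8 FPKM in si2, and 39.7 and 42.2 FPKM in NC. Its si1 libraries lay above the rest (log2 fold change 0.48, SE 0.070, adjusted p 0.00385). The SLC2A4RG call held in all of its alternatives (adjusted p 3.16e-05 to 0.0427 over its 11 alternatives). SLC9A3R1 and SLC9A3R2 encode scaffold proteins of sodium-proton exchangers, and SLC9A3R1 had a log2 fold change of -0.13 in both groups together, without a call in any comparison. SLC9A3R2 had 28.2 and 27.7 FPKM in si1, 38.6 and 41.3 FPKM in si2, and 31.4 and 34.6 FPKM in NC. It was lower in si1 than in si2 (log2 difference -0.50, SE 0.072, adjusted p 0.00206), and this call held in all of its alternatives (adjusted p 1.89e-05 to 0.0186 over its 11 alternatives). Against NC it rose in si2 (log2 fold change 0.27, SE 0.072, adjusted p 0.0308), a call that ended with no filter on low genes (adjusted p 0.0834) and without si2 replicate 1, si2 replicate 2, NC replicate 1 and NC replicate 2 in turn (adjusted p 0.0789, 0.163, 0.186 and 0.0642), in a range of 0.0086 to 0.186 over its 11 alternatives. SLC22A18AS overlaps SLC22A18 on the other strand and had the fewest reads of a member in any library, 22, and 16 members had under 100 reads in at least 1 library.

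The direct contrast of si1 with si2 sets no NC library against them and gave the most calls among the carriers. SLC20A1 was lowest in si1 relative to si2 (log2 difference -1.39, SE 0.064, adjusted p 3.02e-05), followed by SLC7A1 (log2 difference -1.17, SE 0.089, adjusted p 0.000174), SLC37A2 (log2 difference -1.14, SE 0.074, adjusted p 0.000105) and SLC1A4 (log2 difference -1.01, SE 0.088, adjusted p 0.000297). SLC35A5 and SLC35B4 came next with log2 differences of -0.95 and -0.92. SLC44A2 was highest in si1 relative to si2 (log2 difference 1.53, SE 0.072, adjusted p 3.29e-05), followed by SLC38A7 (log2 difference 1.11, SE 0.15, adjusted p 0.00149), SLC29A1 (log2 difference 1.04, SE 0.078, adjusted p 0.00017) and SLC29A2 (log2 difference 0.91, SE 0.15, adjusted p 0.00343). SLC43A2 and SLC26A6 came next with log2 differences of 0.84 and 0.81, given with no test because their si2 means were below 1 FPKM. These 12 were named among genes whose libraries do not overlap, and the calls of the other 10 held in each of the 11 alternatives.

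**Figure D5:**
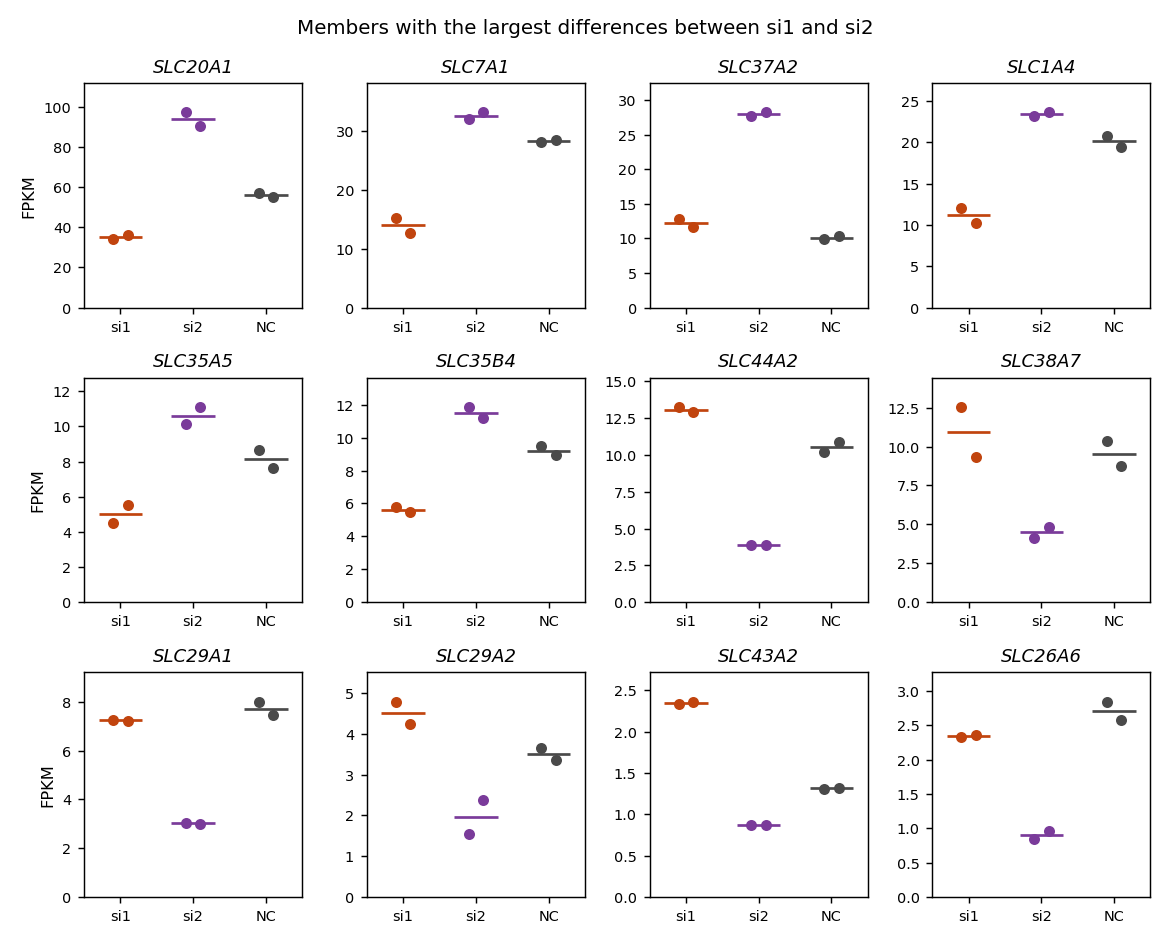
FPKM (y axis, from 0) of the 6 members lowest and the 6 highest in si1 relative to si2. Points are libraries and bars are means of the 2 libraries of si1, si2 and NC. For SLC20A1 the si1 libraries at 34.4 and 36.2 FPKM lie below NC and the si2 libraries at 97.3 and 90.7 FPKM above it, and for SLC44A2 the si2 libraries at 3.88 and 3.87 FPKM lie below si1 and NC.

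By class, 4 amino acid carriers were higher and 8 lower in si1 than in si2, and 5 metal carriers were higher and 10 lower. Of all genes tested, 18.6% were called higher and 19.9% lower in this contrast. SLC43A2 and SLC26A6, given with no test, are among the amino acid and ion carriers counted as higher. Of all members counted as higher there, 3 had a group mean below 1 FPKM. Of 7 lipid and choline carriers 5 were higher in si1, where limma called none lower, against 0 at an unadjusted p under 0.05 and 0 with limma-voom, and of 25 ion carriers 7 were higher and 4 lower.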

How the data were processed

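RNA was sequenced from 6 libraries of SK-MES-1 cells, 2 each of si1, si2 and NC, grouped by the labels. The authors deposited 1 table of FPKM per gene, with gene length and position. The build is hg38 per the submitters' processing notes, and the aligner, the counting program, the annotation and the use of strand are not given in the sources used here. Start and end of all 153 members match GENCODE 29.

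FPKM times gene length came out as whole multiples of 1 read within 0.001 for 100% of values, which gave the read totals per library. Genes averaging at least 1 FPKM were tested on log2(FPKM + 1) with limma 3.58.1 (R 4.3.3), with 1 coefficient per group, all 6 libraries, a variance trend, 3 residual degrees of freedom and Benjamini-Hochberg adjustment over all 12319 genes. SE is limma's moderated standard error. The fit was also run on simulated data in which si1 and si2 changed alike, unlike in these libraries. Its outcome is not given and is not used as support. A planned edgeR count model was not used, since the values are FPKM, and limma-voom on recovered reads took its place as an alternative chosen after seeing the data. Other alternatives were a pseudocount of 0.1, no filter on genes outside the members, median centring, a replicate block, each library left out, and 1 knockdown group. Precision is limited by 2 libraries per group and, for genes of low FPKM, by counts.

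The members, classes and partner gene lists were chosen with earlier results of these data known. Genes named were the 12 highest and 12 lowest called members in both groups together with all knockdown libraries on 1 side of NC, the 6 highest and 6 lowest called members without overlap in each other contrast, the 3 most abundant and the 3 most changed of each class, the light chains of SLC3A2, the rows that are no transporters, the genes next to the threshold, and the 4 most changed of each partner list. A few genes that this rule or the marker and partner lists cover are not reported here.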

Additional observations from a re-analysis of the deposited data

Results flagged for a closer look

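In 6 members the change against NC was called in opposite directions in si1 and in si2. These calls chose the genes and fix the sign of the difference between si1 and si2, which is therefore given as a value and was not tested further. The log2 difference of si1 against si2 was -1.39 for SLC20A1, -0.92 for SLC35B4, -0.80 for SLC11A2, -0.77 for SLC3A2 and 1.53 for SLC44A2. SLC44A2 alone of these was higher in si1. Both calls of SLC20A1 against NC held in all alternatives. For SLC35B4, SLC11A2, SLC3A2 and SLC44A2 a call against NC in si1 or in si2 ended in some, as given above. The share of all genes called in opposite directions is not given, so the 6 members are a count only.

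The sixth is SLC30A6, a zinc carrier of the Golgi that lies outside the naming rule and was chosen after its values were seen. SLC30A6 had 8.93 and 9.93 FPKM in si1, 17.2 and 16.4 FPKM in si2, and 13.5 and 14.04 FPKM in NC. The si1 libraries lay below NC and the si2 libraries above it, with a log2 difference of -0.77 between si1 and si2. Its fall in si1 held in all of its alternatives (adjusted p 8.82e-05 to 0.045 over its 11 alternatives), while its rise in si2 ended with no filter on low genes (adjusted p 0.0929) and without si2 replicate 1, si2 replicate 2, NC replicate 1 and NC replicate 2 in turn (adjusted p 0.19, 0.102, 0.185 and 0.13), in a range of 0.0122 to 0.19 over its 11 alternatives.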

How the results depend on the processing

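No member named here changed direction under any alternative in a comparison in which it was called. With no filter on genes outside the members, 22 members were called in both groups together, 29 in si1, 30 in si2 and 48 between si1 and si2, against 44, 50, 64 and 76 with the filter. limma-voom on the recovered reads called 67, 64, 85 and 83. The fit with 1 knockdown group called 4. The share of all genes called under each alternative is not given, so these counts do not show how members moved relative to all genes. Leaving out 1 library gave 17 to 48 calls in both groups together, 22 to 45 in si1, 27 to 69 in si2 and 47 to 70 between si1 and si2. The counts that moved by over 1.5 times were 29 without si2 replicate 2, 21 without NC replicate 1 and 17 without NC replicate 2 in both groups together. In si1 they were 22 without NC replicate 1 and 26 without NC replicate 2. In si2 they were 31 without si2 replicate 1, 37 without si2 replicate 2, 31 without NC replicate 1 and 27 without NC replicate 2, and between si1 and si2 47 without si2 replicate 1. In these fits the lone sample of a group is assumed to vary like the other groups, and the cause of the moves was not tested. A pseudocount of 0.1 and median centring left each count within 1.5 times. The named calls counted next include those of SLC6A17, SLC22A17, SLC26A6 and SLC43A2. Their differences to a group below 1 FPKM are to be read as values only. Of the named calls, 4 of 33 in both groups together, 17 of 36 in si1, 22 of 43 in si2 and 29 of 41 between si1 and si2 held in all alternatives.

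The labels give the groups the same replicate numbers. The replicate block gave 35, 43, 53 and 66 calls in the same order of comparisons. Same-numbered libraries did not deviate together, with correlations of -0.052 for si1 with NC, 0.0503 for si2 with NC and -0.0577 for si1 with si2. These values show no strong shared deviation. They cannot tell whether same-numbered libraries were prepared together, which the labels do not say. Of the named calls, 4, 4, 6 and 1 ended in it, and the ranges of adjusted p beside single genes include it. The planned edgeR quasi-likelihood test was not run, because the deposited values are FPKM.

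With 2 libraries per group, small differences and genes under 100 reads are at the edge of what these data can show. Transcript levels do not measure transport. Counting intervals would cover counting error only and are not given.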
